A study of Mus musculus with 15 samples.

Results

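The genes described are 54 ligands and receptors of 4 systems of guidance cues, the ephrins, the slits, the netrins and the semaphorins. They were taken by symbol from a list of ligands and receptors written for this work, without the Eph receptors, and all 54 were found among the 23128 genes kept of 27179 entries in the deposited count table. The list holds 33 ligands and 21 receptors. There are 8 ephrins, 3 slits with 3 Robo receptors, 4 netrin and netrin-G ligands with 7 receptors, and 18 semaphorins with 11 plexins and neuropilins.

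RNA was sequenced from male C57BL/6 mouse foetuses with and without *Phf6*, an X-linked gene for a nuclear PHD finger protein. The E15.5 cortex was dissected intact from 3 *Phf6*+/Y and 5 *Phf6*-/Y foetuses of 3 litters, the deletion being inherited through the germline and so present in every cell type. E16.5 cortical neurons were dissociated and cultured for a day from 3 *Phf6* +/Y NesCre T/+ and 4 *Phf6* lox/Y NesCre T/+ foetuses of 4 litters. Both neuron groups thus carried the NesCre transgene (*Nes-cre*), which drives Cre recombinase in cells of the neural tube, and neither cortex group did. In both models *Phf6* loses exons flanked by loxP sites, and the neuron controls carry no loxP allele. The neuron groups are called control and deleted neurons below, and each library is named by its group and replicate number. Litters are named in the labels and single animals are not, but the paper plots values of these RNA data as individual foetuses. The p-values measure the spread between these samples.

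Growing axons and migrating neurons read guidance cues through receptors on their surface. Ephrins are bound to the membrane, the A class by a GPI anchor and the B class by a transmembrane segment, and bind Eph receptor tyrosine kinases. Slits are secreted and repel axons that carry Robo receptors, whereas netrin-1 attracts through DCC and repels through UNC5 receptors. Semaphorins act through plexins, and most of the secreted class 3 semaphorins also need a neuropilin. In the developing cortex these cues steer callosal, corticofugal and thalamocortical axons and the migration of neurons.

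Total counts per library ranged from 16858007 to 31157700 (median 24218468). *Phf6* itself was at 34.3 to 43.8 RPKM in *Phf6*+/Y and at 9.76 to 12.7 RPKM in *Phf6*-/Y cortices, and at 52.4 to 59.6 RPKM in control and 13.8 to 19.7 RPKM in deleted neurons, so that every library matched its label. RPKM is the count relative to gene length in kilobases and to library size, computed here from the deposited counts. The libraries differed in markers of other cells. Summed over 4 thalamus and diencephalon markers, *Phf6*-/Y cortex replicate 1 was at 92.5 RPKM, and the other 7 cortices lay between 6.34 and 10.9 RPKM. Choroid plexus markers ranged from 0.958 to 369 RPKM and meningeal markers from 2.93 to 112 RPKM among the cortices of both genotypes. The sum of 6 Cajal-Retzius cell markers was higher in every *Phf6*-/Y cortex (54.6 to 66.2 RPKM) than in any *Phf6*+/Y cortex (41.9 to 46.5 RPKM), and higher in every deleted (29.3 to 47.5 RPKM) than in any control culture (18.6 to 24.7 RPKM). At a false discovery rate below 0.05 in the test described below, only *Lhx5* and *Calb2* of these 6 were higher in *Phf6*-/Y cortices. Only *Reln* was higher in deleted neurons, where the paper reports it as the top differentially expressed gene. In such bulk samples, fewer cells of a type and less RNA per cell cannot be told apart.

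All 4 systems were well represented in the *Phf6*+/Y cortex, where 37 of the 54 genes had a mean of 10 RPKM or more, 14 lay between 1 and 10 RPKM and 3 below 1 RPKM. Among the ephrins, the transmembrane ligand *Efnb2* had the highest level (80.1 ± 4.57 RPKM, SD, n = 3), followed by *Efnb1* (69.1 ± 9.47 RPKM) and *Efnb3* (56.2 ± 9.01 RPKM). The A class was lower, and its leading gene *Efna2* was at 20.7 ± 3.03 RPKM. Of the slits, *Slit1* was the highest (23.1 ± 2.02 RPKM), and the slit receptors *Robo1* and *Robo2* were at 36.4 ± 2.53 RPKM and at 24.9 to 30.6 RPKM. *Ntn1* encodes netrin-1 and was at 10.7 ± 2.12 RPKM, while *Neo1*, the DCC relative that also binds repulsive guidance molecules, was at 48.1 ± 2.71 RPKM. The GPI-anchored netrin-G ligand *Ntng2* was at 34.1 ± 2.29 RPKM and *Unc5a* led the UNC5 receptors at 15.2 ± 1.43 RPKM. The receptor *Plxna2*, through which class 6 semaphorins signal, was at 66.2 ± 3.32 RPKM and *Plxnb2*, a receptor of class 4 semaphorins, at 64.7 ± 3.49 RPKM. The transmembrane semaphorins *Sema6c* (48.1 ± 4.96 RPKM) and *Sema4c* (32.2 ± 3.73 RPKM) had the highest means of their classes over all libraries. *Plxnb3* was close to absence in each group, with at most 0.138 RPKM in 1 library. With the members ordered by mean level, values of only 6 of 53 neighbouring pairs did not overlap between libraries in the *Phf6*+/Y cortex, so most neighbours in that order could not be separated. In control neurons 34 genes had a mean of 10 RPKM or more, and 14 of the 53 neighbouring pairs did not overlap. The order there was led by *Sema3c* (148 ± 9.48 RPKM), *Efnb2* (111 ± 5.10 RPKM), *Plxna2* (82.6 ± 10.7 RPKM), *Neo1* (80.9 ± 2.40 RPKM) and *Nrp1* (80.3 ± 2.94 RPKM).

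The first comparison asked which of these genes changed when the germline deletion removed *Phf6* from the E15.5 cortex. The plexin gene *Plxnc1* and the ephrin gene *Efna5* were upregulated in *Phf6*-/Y cortices, and no member was downregulated. These 2 calls were among 53 members tested (*Plxnb3* was too low), at a false discovery rate (FDR, Benjamini-Hochberg over all genes tested) below 0.05 in edgeR's quasi-likelihood test, fitted with a term for litter. Over all 14746 genes tested, 0.387% passed the same threshold, 0.319% as higher. The median log2 fold change was 0.025 over the members and -0.0021 over all genes.

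*Plxnc1* (Entrez gene 54712, chromosome 10, 94790866 to 94945015 in GRCm38) encodes the plexin that binds the GPI-anchored semaphorin SEMA7A. It was at 15.3, 14.6 and 14.7 RPKM in *Phf6*+/Y replicates 1 to 3 and at 20.05, 19.4, 20.8, 19.3 and 18.7 RPKM in *Phf6*-/Y replicates 1 to 5. The lowest *Phf6*-/Y cortex thus stood above the highest *Phf6*+/Y cortex, and the difference was 1.32-fold, a log2 fold change of 0.40 (SE 0.06, FDR = 0.0226). Within litters, each of the 5 *Phf6*-/Y cortices exceeded the *Phf6*+/Y cortex of its own litter, by 0.34 to 0.51 on the log2 scale.

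*Efna5* (Entrez gene 13640, chromosome 17, 62602957 to 62881317) encodes a GPI-anchored ephrin that repels axons in topographic mapping. Its levels were 4.03, 2.97 and 3.26 RPKM in the *Phf6*+/Y and 7.06, 5.07, 4.29, 4.04 and 4.33 RPKM in the *Phf6*-/Y cortices. The groups touched without overlapping, since the highest *Phf6*+/Y value of 4.03 RPKM lay just under the lowest *Phf6*-/Y value of 4.04 RPKM. The difference was 1.501-fold, a log2 fold change of 0.59 (SE 0.11, FDR = 0.0392), and the highest value belonged to *Phf6*-/Y replicate 1, the library with the high thalamus markers. Without that library, whose loss also takes litter 3 out of the genotype effect, *Efna5* had a log2 fold change of 0.51 with FDR = 0.199. *Plxnc1* then had one of 0.41 with FDR = 0.0653. Each call was also lost without any of the 3 *Phf6*+/Y replicates or without *Phf6*-/Y replicate 2, with FDR between 0.0876 and 0.174 for *Plxnc1* and between 0.0761 and 0.254 for *Efna5*, while the fold changes stayed between 0.38 and 0.42 and between 0.50 and 0.71. Without the litter term, FDR was 0.145 for *Plxnc1* and 0.599 for *Efna5*. The Cajal-Retzius marker sum moved with genotype in the same libraries, and its part in either difference was not tested.

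The promoters of these genes are shown because they were the members that changed with genotype, together with that of *Sema3c*, which had the largest difference between neurons and cortex. Each runs from 250 bases before to 50 bases after the start that RefSeq's promoter table uses in GRCm38.p6, is written 5′ to 3′ on the strand of its gene, and has matches to the GC box, GGGCGG on either strand, in capitals. *Plxnc1* lies on the minus strand at chr10:94944796-94945095 and holds 4 matches, with a start at 94944845 that lies inside the span of the gene given above, *Efna5* on the minus strand at chr17:62881268-62881567 and holds 4, and *Sema3c* on the plus strand at chr5:17574566-17574865 and holds 3.
Plxnc1: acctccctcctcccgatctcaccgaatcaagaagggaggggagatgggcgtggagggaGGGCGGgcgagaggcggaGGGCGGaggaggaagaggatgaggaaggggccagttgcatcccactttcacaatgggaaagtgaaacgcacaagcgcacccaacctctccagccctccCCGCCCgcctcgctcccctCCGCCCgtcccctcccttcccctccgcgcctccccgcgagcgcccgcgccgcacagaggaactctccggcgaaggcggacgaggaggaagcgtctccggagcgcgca
Efna5: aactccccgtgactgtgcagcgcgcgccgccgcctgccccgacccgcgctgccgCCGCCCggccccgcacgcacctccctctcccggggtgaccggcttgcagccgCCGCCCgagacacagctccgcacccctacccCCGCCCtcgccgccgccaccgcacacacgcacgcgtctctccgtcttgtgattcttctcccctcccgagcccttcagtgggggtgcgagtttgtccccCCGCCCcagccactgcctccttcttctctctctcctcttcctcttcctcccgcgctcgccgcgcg
Sema3c: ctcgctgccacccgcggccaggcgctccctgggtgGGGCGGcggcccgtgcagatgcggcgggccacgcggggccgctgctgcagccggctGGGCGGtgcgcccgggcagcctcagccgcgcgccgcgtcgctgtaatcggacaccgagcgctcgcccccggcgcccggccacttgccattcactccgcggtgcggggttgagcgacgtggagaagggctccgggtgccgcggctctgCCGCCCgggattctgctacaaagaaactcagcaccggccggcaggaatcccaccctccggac
The 3 windows were rich in G and C, at 69%, 73.3% and 75.7%. Promoters were at hand for 45 members, 60 windows in all with a median of 64.2% G and C, against 52.7% over 32851 windows of the same length. The GC box was found in 41 of the 60 (68.3%) and in 35.7% of all windows. The E-box CANNTG was in 46.7% of the members' and in 72.3% of all windows, and the TATA box TATAAA in 3.33% and 13.6%, both strands being searched and no overlaps between motifs being removed. These shares describe letters in the windows, and no binding was measured.

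**Figure D1:**
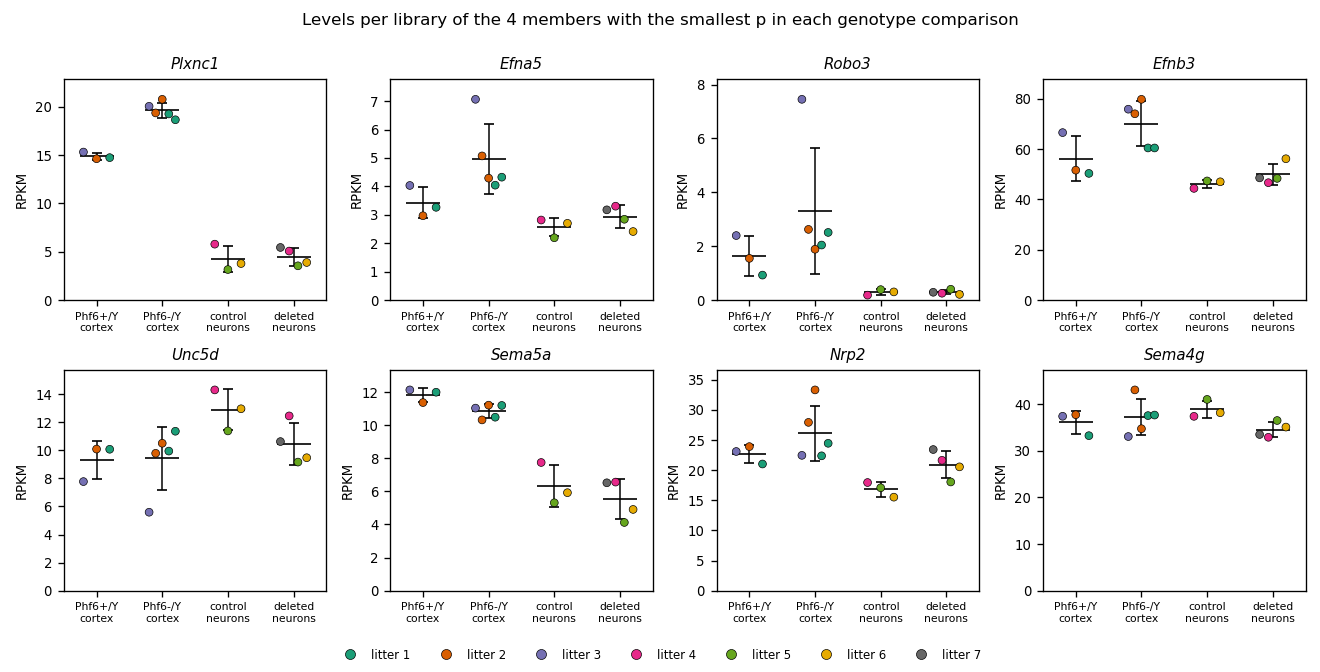
Levels in RPKM per library (y axis, from 0) of *Plxnc1*, *Efna5*, *Robo3*, *Efnb3*, *Unc5d*, *Sema5a*, *Nrp2* and *Sema4g* in *Phf6*+/Y cortex, *Phf6*-/Y cortex, control neurons and deleted neurons (x axis). Points are libraries coloured by litter, and bars are the mean ± SD. The 5 *Phf6*-/Y cortices sit above all 3 *Phf6*+/Y cortices for *Plxnc1*, and 1 *Phf6*-/Y cortex of litter 3 stands apart for *Robo3* at 7.45 RPKM.

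An unadjusted p below 0.05 was reached by 15 of the 53 members in the cortex, 11 higher and 4 lower, where 10.4% of all genes tested reached it. Among the ephrins, both *Efna4* and *Efnb2* were lower without passing the FDR. *Efna4*, a GPI-anchored ligand, was at 13.1, 12.02 and 11.8 RPKM in *Phf6*+/Y and 9.43, 9.75, 9.92, 8.997 and 9.69 RPKM in *Phf6*-/Y cortices, with no overlap and a log2 fold change of -0.36 (SE 0.10, FDR = 0.176). *Efnb2* was at 75.4, 80.4 and 84.5 RPKM and 52.8, 69.3, 75.8, 73.6 and 75.2 RPKM, where *Phf6*-/Y replicate 1 was the lowest and *Phf6*-/Y replicate 3 reached just past the lowest *Phf6*+/Y cortex at 75.8 against 75.4 RPKM, with a log2 fold change of -0.27 (SE 0.07, FDR = 0.174). *Efnb3*, the third transmembrane ephrin, moved the other way, from 66.5, 51.6 and 50.3 RPKM to 75.8, 74.0, 79.8, 60.5 and 60.4 RPKM, with a log2 fold change of 0.35 (SE 0.07, FDR = 0.0742). The 2 groups overlapped for *Efnb3*, whose level differed by litter, although each *Phf6*-/Y cortex exceeded its own litter's control.

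In the slit system, *Robo3* had the largest difference of any member. This divergent Robo receptor, known for its part in commissural axon crossing at the midline, was at 2.40, 1.55 and 0.930 RPKM in *Phf6*+/Y and at 7.45, 2.63, 1.89, 2.04 and 2.51 RPKM in *Phf6*-/Y cortices. Replicate 1 of the *Phf6*-/Y cortices was far above the rest, and the remaining values of the 2 groups overlapped. The overlap lay at *Phf6*+/Y replicate 1, which is of the same litter as that library. Each *Phf6*-/Y cortex exceeded the control of its own litter, by 0.28 to 1.63 on the log2 scale. The fitted difference was 2.16-fold, a log2 fold change of 1.11 (SE 0.21, FDR = 0.0507), just outside the threshold. *Robo3* was past the threshold in 5 of 7 alternative fits, among them RLE scaling (FDR = 0.0494), limma-trend (FDR = 0.0407) and DESeq2 (FDR = 3.17e-05). The highest FDR over these 7 was 0.790. It also passed in 2 of 8 fits that left out 1 library. Without *Phf6*-/Y replicate 1 its log2 fold change fell to 0.89 (FDR = 0.199). DESeq2 also called *Efnb3* and *Ntng1* higher. *Robo1*, the most abundant slit receptor here, was at 33.5 to 38.2 RPKM and 38.7 to 46.2 RPKM, with a log2 fold change of 0.19 (SE 0.07, FDR = 0.319). The ligands *Slit1*, *Slit2* and *Slit3* had log2 fold changes of 0.10, 0.16 and -0.41, none past the FDR.

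Of the netrin genes none passed the threshold in the cortex. *Ntng1*, the netrin-G1 gene, was at 1.32, 1.06 and 1.05 RPKM in *Phf6*+/Y and at 6.02, 1.74, 1.60, 1.23 and 1.75 RPKM in *Phf6*-/Y cortices, again with replicate 1 far above the others, and a log2 fold change of 1.03 (SE 0.31, FDR = 0.303), which was 0.58 without that library. Each *Phf6*-/Y cortex exceeded its own litter's control for *Ntng1*, by 0.22 to 2.18 on the log2 scale. *Ntn1* had a log2 fold change of 0.26 (SE 0.09, FDR = 0.329), and the receptors *Dcc*, *Neo1* and *Dscam* lay between -0.02 and 0.12. The semaphorins gave no call among 18 ligands, whose log2 fold changes ran from -0.17 to 0.37. The upper end was *Sema4a*, a transmembrane semaphorin, at 7.26, 6.08 and 4.97 RPKM in *Phf6*+/Y and 9.19, 8.70, 7.42, 6.11 and 6.78 RPKM in *Phf6*-/Y cortices, with overlapping groups and a log2 fold change of 0.37 (SE 0.10, FDR = 0.1496). Within litters, each *Phf6*-/Y cortex exceeded its control for *Sema4a*, by 0.29 to 0.52 on the log2 scale. Among the semaphorin receptors beside *Plxnc1*, *Plxna1* was at 34.4 to 41.4 RPKM and 37.0 to 48.7 RPKM, with a log2 fold change of 0.20 (SE 0.06, FDR = 0.270). *Sema7a*, the ligand of the *Plxnc1* product, had a log2 fold change of -0.15 (SE 0.08, FDR = 0.558). The members without a call ran from -0.41 (*Slit3*) to 1.11 (*Robo3*), and 41 of the 53 members tested had a fitted log2 fold change within 0.25 of 0. The values of 6 members did not overlap between genotypes, 4 higher (*Efna5*, *Robo1*, *Unc5c* and *Plxnc1*) and 2 lower (*Efna4* and *Sema5a*), where 5.01% of all genes tested were without overlap. For *Unc5c* the highest *Phf6*+/Y value of 1.57 RPKM lay just under the lowest *Phf6*-/Y value of 1.58 RPKM.

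**Figure D2:**
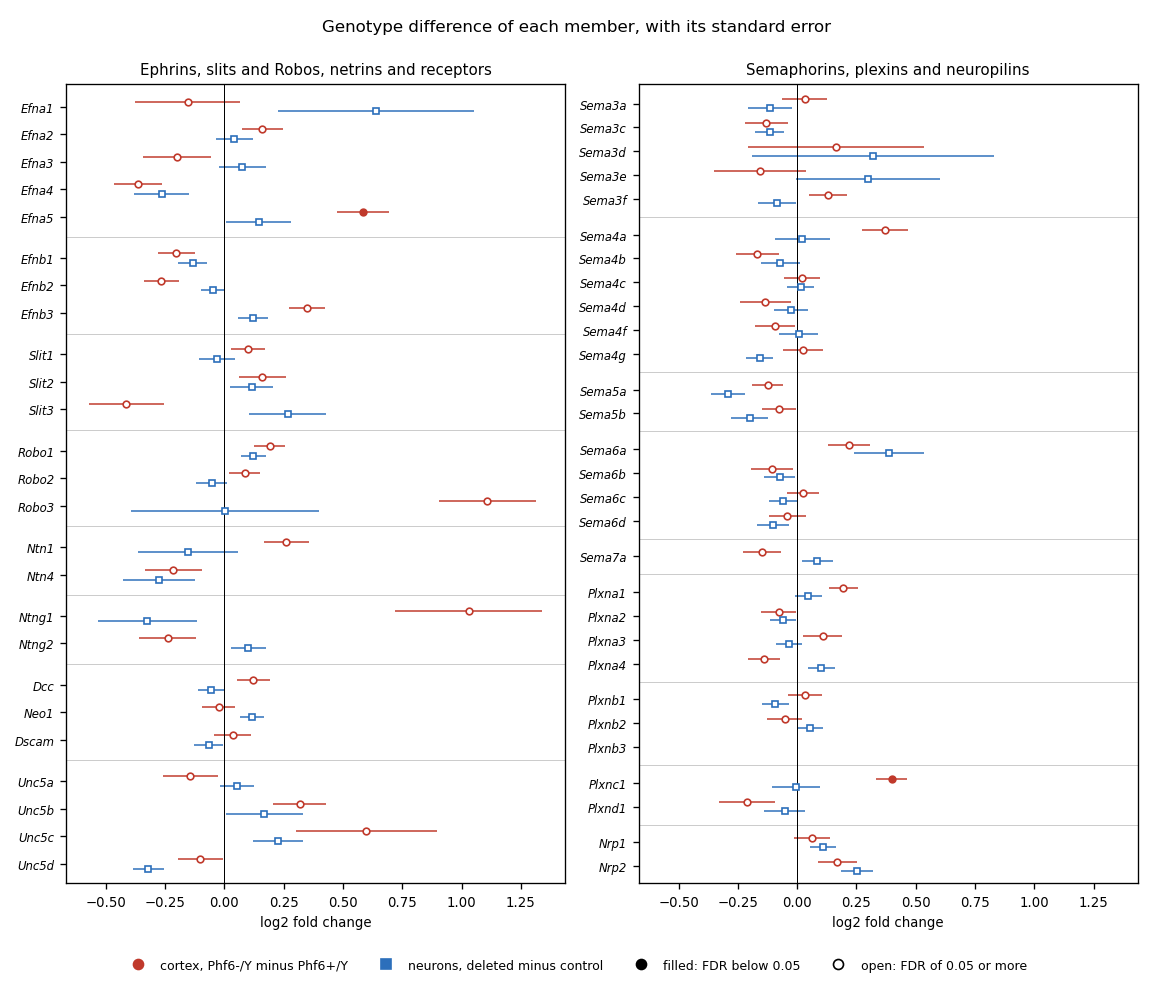
Log2 fold change between genotypes (x axis) of each member (y axis), for *Phf6*-/Y minus *Phf6*+/Y cortex (circles) and deleted minus control neurons (squares), grouped by family. Bars are standard errors, and filled symbols have FDR below 0.05. Only *Plxnc1* and *Efna5* in the cortex are filled, and *Plxnb3* was not tested.

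Part of the spread among the *Phf6*-/Y cortices lay in replicate 1. Beside *Robo3* and *Ntng1*, the netrin receptor *Unc5c* was at 4.42, 1.94, 1.76, 1.61 and 1.58 RPKM and *Slit2* at 9.47, 5.81, 6.08, 5.62 and 5.71 RPKM in *Phf6*-/Y replicates 1 to 5. Both were highest in replicate 1. *Robo2* was at 23.8, 31.9, 32.9, 34.1 and 32.2 RPKM, *Sema3a* at 4.35, 6.93, 6.80, 6.86 and 7.06 RPKM and *Unc5d* at 5.59, 9.79, 10.5, 9.95 and 11.4 RPKM, and all 3 were lowest in replicate 1. The same library had the summed thalamus marker level of 92.5 RPKM given above. Its part in these members' levels was not tested. The *Phf6*+/Y cortex of its litter had a marker sum of 10.9 RPKM.

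**Figure D3:**
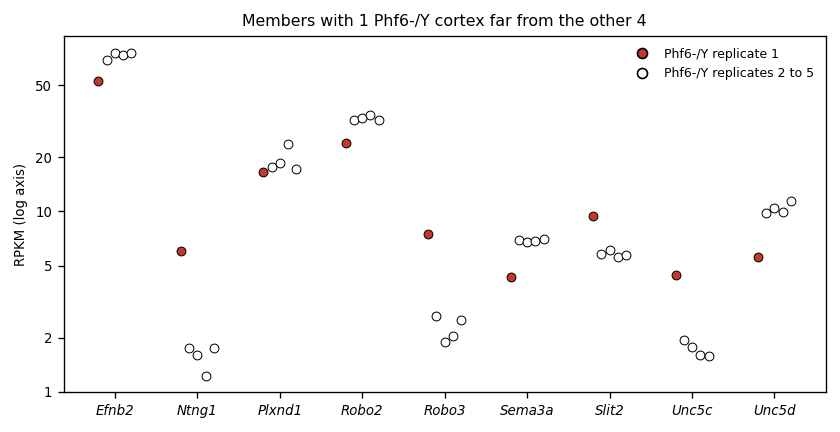
Levels in RPKM (y axis, log scale) of *Efnb2*, *Ntng1*, *Plxnd1*, *Robo2*, *Robo3*, *Sema3a*, *Slit2*, *Unc5c* and *Unc5d* (x axis) in the 5 *Phf6*-/Y cortices, with replicate 1 filled and replicates 2 to 5 open. Replicate 1 is the far value in 8 of the 9 genes, the exception being *Plxnd1*, where replicate 4 is high at 23.5 RPKM.

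The second comparison asked the same of E16.5 cortical neurons, in which *Nes-cre* had removed *Phf6*. No member had an FDR below 0.05 in edgeR's quasi-likelihood test, where 0.273% of 13905 genes did, and 10 members, 4 higher and 6 lower, reached an unadjusted p below 0.05, where 10.3% of all genes did. Of 53 members tested, 42 had a fitted log2 fold change within 0.25 of 0. DESeq2 called 1 member, *Unc5d*, and limma-trend none. The genotype effect rests on 3 litters, since litter 7 held a deleted culture and no control. Leaving out either culture of litter 4, 5 or 6 takes that litter out of the genotype effect, so such fits come in pairs.

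*Unc5d* (Entrez gene 210801, chromosome 8, 28646717 to 29219671), a repulsive receptor that binds netrins and the FLRT2 protein, was nearest to the threshold. It was at 14.3, 11.4 and 13.0 RPKM in control neurons and at 10.6, 12.5, 9.16 and 9.47 RPKM in deleted neurons. The groups overlapped, but each deleted culture of litters 4 to 6 was below the control of its litter by 0.20 to 0.45 on the log2 scale, and the fit gave a log2 fold change of -0.32 (SE 0.07, FDR = 0.0708). Adjusted p-values ranged from 0.0073 to 0.372 over the fits that left out 1 library, and 4 of those 7 were below 0.05. *Unc5d* was below 0.05 without control replicate 1, control replicate 3, deleted replicate 2 or deleted replicate 4. These are the cultures of litters 4 and 6, so the 4 fits pair up by litter.

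*Sema5a* and *Sema5b*, transmembrane semaphorins with thrombospondin repeats, were both lower without passing the FDR. *Sema5a* was at 7.75, 5.31 and 5.92 RPKM in control and 6.52, 6.56, 4.12 and 4.91 RPKM in deleted neurons, with a log2 fold change of -0.29 (SE 0.07, FDR = 0.133). *Sema5b* was at 11.5, 10.9 and 9.61 RPKM and 11.97, 10.5, 9.06 and 8.33 RPKM, with a log2 fold change of -0.20 (SE 0.08, FDR = 0.381). For both genes the litters spread more widely than the genotypes, and the groups overlapped. *Nrp2*, a co-receptor of secreted semaphorins, was at 17.95, 17.1 and 15.52 RPKM in control and at 23.4, 21.6, 18.04 and 20.6 RPKM in deleted neurons. The groups touched without overlap, at 17.95 against 18.04 RPKM, with a log2 fold change of 0.25 (SE 0.07, FDR = 0.152). *Sema4g*, a transmembrane semaphorin, was at 37.4, 41.0 and 38.2 RPKM and 33.5, 32.9, 36.5 and 35.1 RPKM, also without overlap, with a log2 fold change of -0.16 (SE 0.06, FDR = 0.333). *Sema6a*, a transmembrane semaphorin that binds A plexins, was at 3.94, 3.90 and 2.30 RPKM and 5.45, 4.55, 3.91 and 4.54 RPKM, where control replicate 3 was low, with a log2 fold change of 0.39 (SE 0.15, FDR = 0.369). Leaving out 1 library at a time moved the log2 fold change of *Sema6a* from 0.11 without deleted replicate 4 to 0.57 without deleted replicate 3. *Sema6a* passed the FDR in 2 of 7 such fits, without control replicate 1 (FDR = 0.0434) or deleted replicate 2 (FDR = 0.0451), both of litter 4. *Sema5a* passed in 2 of 7, without control replicate 3 (FDR = 0.0211) or deleted replicate 4 (FDR = 0.0359), both of litter 6. *Sema5b*, *Nrp2* and *Sema4g* passed in none.

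*Efna4* had a log2 fold change of -0.27 (SE 0.12, FDR = 0.448) and *Robo1* had a log2 fold change of 0.12 (SE 0.05, FDR = 0.450) in the neurons. The 2 genes called in the cortex were at 5.79, 3.16 and 3.79 RPKM (*Plxnc1*) and 2.82, 2.19 and 2.70 RPKM (*Efna5*) in control neurons and at 5.45, 5.08, 3.55 and 3.90 RPKM and 3.18, 3.31, 2.84 and 2.41 RPKM in deleted neurons. Both overlapped between genotypes, with log2 fold changes of -0.0047 (SE 0.10) and 0.15 (SE 0.14). The groups did not overlap for 5 members, *Efna1*, *Neo1*, *Plxnb2* and *Nrp2* higher and *Sema4g* lower, where 7.24% of all genes tested were without overlap. *Efna1* was at only 0.534 to 0.804 RPKM in control and 0.807 to 1.24 RPKM in deleted neurons and had the widest fitted difference, a log2 fold change of 0.64 (SE 0.41, FDR = 0.652). The Cajal-Retzius marker sum differed between these groups too, as given above. Summed choroid plexus markers were at 0.455 to 2.30 RPKM in control and 2.37 to 19.2 RPKM in deleted neurons, also without overlap. Thalamus and diencephalon markers summed to 2.14 to 2.43 RPKM and 3.09 to 4.00 RPKM, again without overlap. The part of these markers in the members' levels was not tested.

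Whether the effect of the deletion differed between neurons and cortex was tested as an interaction over all 15 libraries. No member passed an FDR of 0.05, where 2 of 14997 genes did (0.0133%), and DESeq2 and limma-trend called none of the members. An unadjusted p below 0.05 was reached by 10 members, where 5.19% of all genes reached it. The log2 fold change with the deletion was higher in neurons than in cortex for 3 of them and lower for 7. *Plxnc1* had the smallest p of the members in edgeR's fit, with a difference in log2 fold change of -0.41 (SE 0.11, FDR = 0.623), so a genotype effect particular to the cortex was not shown for it. For *Efna5* the difference was -0.44 (SE 0.18, FDR = 0.937).

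The guidance genes differed far more between cultured neurons and intact cortex. In control libraries, 38 of 53 members passed the FDR, 19 higher and 19 lower in neurons, against 51.1% of 14316 genes tested. Scaling by library totals moved the median log2 fold change of all genes from -0.028 to -0.17, the calls over all genes from 3539 higher and 3775 lower to 2457 and 4998, and those over the members to 15 higher and 20 lower. The higher calls of *Sema4c*, *Sema6c*, *Plxna2* and *Plxna3* were lost with it and *Plxna1* was called lower, while every other call among the members kept its direction and its side of the threshold. A fit over all 15 libraries gave 17 higher and 16 lower members, and the calls of *Unc5c* (FDR = 0.184), *Unc5d* (FDR = 0.0681), *Slit2* (FDR = 0.0730), *Efnb3* (FDR = 0.0534) and *Efna5* (FDR = 0.0804, and 0.0524 with RLE scaling) were lost with it. The median size of the log2 fold change was 0.52 over the members and 0.39 over all genes. This comparison cannot be told apart from the difference in embryonic day, dissociation and culture, the *Nes-cre* transgene and litter. The cell content differed as well: in control neurons against control cortex, the summed level of 8 endothelial and mural markers was 0.0233 times, of 11 progenitor markers 0.288 times and of 7 ganglionic eminence and interneuron markers 0.341 times that in the cortex, and that of 8 markers of postmitotic neurons 1.44 times. The endothelial gene *Cldn5* was at 0 RPKM in every control culture. The part of these cells in the members' differences was not tested.

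*Sema3c* (Entrez gene 20348, chromosome 5, 17574816 to 17730268) encodes a secreted semaphorin that binds neuropilins, and was the member with the largest difference. It was at 8.84, 13.3 and 13.1 RPKM in *Phf6*+/Y cortices and at 157, 149 and 138 RPKM in control neurons, which made it the highest of the 54 genes in control neurons and the 34th in the cortex. The difference was 12.6-fold, a log2 fold change of 3.66 (SE 0.16, FDR = 1.40e-07), and no library of either group came near the other. Of the 2 neuropilins, *Nrp1* was also higher in control neurons, at 83.1, 77.3 and 80.6 RPKM against 22.4, 29.6 and 30.3 RPKM in the cortices. The difference was 2.92-fold, a log2 fold change of 1.55 (SE 0.11, FDR = 3.60e-07). *Nrp2*, the other neuropilin, was lower, from 21.0 to 23.9 RPKM to 15.52 to 17.95 RPKM, with a log2 fold change of -0.43 (SE 0.09, FDR = 9.86e-04). The other class 3 semaphorins *Sema3a*, *Sema3d*, *Sema3e* and *Sema3f* did not pass the test.

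The GPI-anchored *Sema7a* and its receptor *Plxnc1* moved in opposite directions. *Sema7a* rose from 19.6, 22.9 and 20.4 RPKM to 53.7, 54.3 and 54.2 RPKM, with a log2 fold change of 1.36 (SE 0.09, FDR = 1.06e-07). *Plxnc1* fell from 15.3, 14.6 and 14.7 RPKM to 5.79, 3.16 and 3.79 RPKM, with a log2 fold change of -1.81 (SE 0.20, FDR = 9.52e-05). *Plxnd1*, the receptor of SEMA3E, fell with a log2 fold change of -1.43 (SE 0.15, FDR = 3.88e-05). Of the 4 A plexins, *Plxna2*, *Plxna3* and *Plxna4* were higher, led by *Plxna4* with a log2 fold change of 1.01 (SE 0.12, FDR = 5.49e-05), and both B plexins tested were lower, *Plxnb1* with a log2 fold change of -0.87 and *Plxnb2* with -0.52. Among the transmembrane semaphorins, 3 of 6 class 4 genes were higher (*Sema4c*, *Sema4d* and *Sema4f*) and none lower. Both class 5 genes fell, *Sema5b* from 26.5, 25.8 and 19.99 RPKM to 11.5, 10.9 and 9.61 RPKM with a log2 fold change of -1.18 (SE 0.12, FDR = 3.68e-06). The class 6 genes divided, *Sema6b* and *Sema6c* being higher, at 0.65 and 0.36 on the log2 scale, and *Sema6a* and *Sema6d* lower. *Sema6a* fell from 8.86, 6.91 and 8.44 RPKM to 3.94, 3.90 and 2.30 RPKM, with a log2 fold change of -1.26 (SE 0.20, FDR = 5.20e-04).

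**Figure D4:**
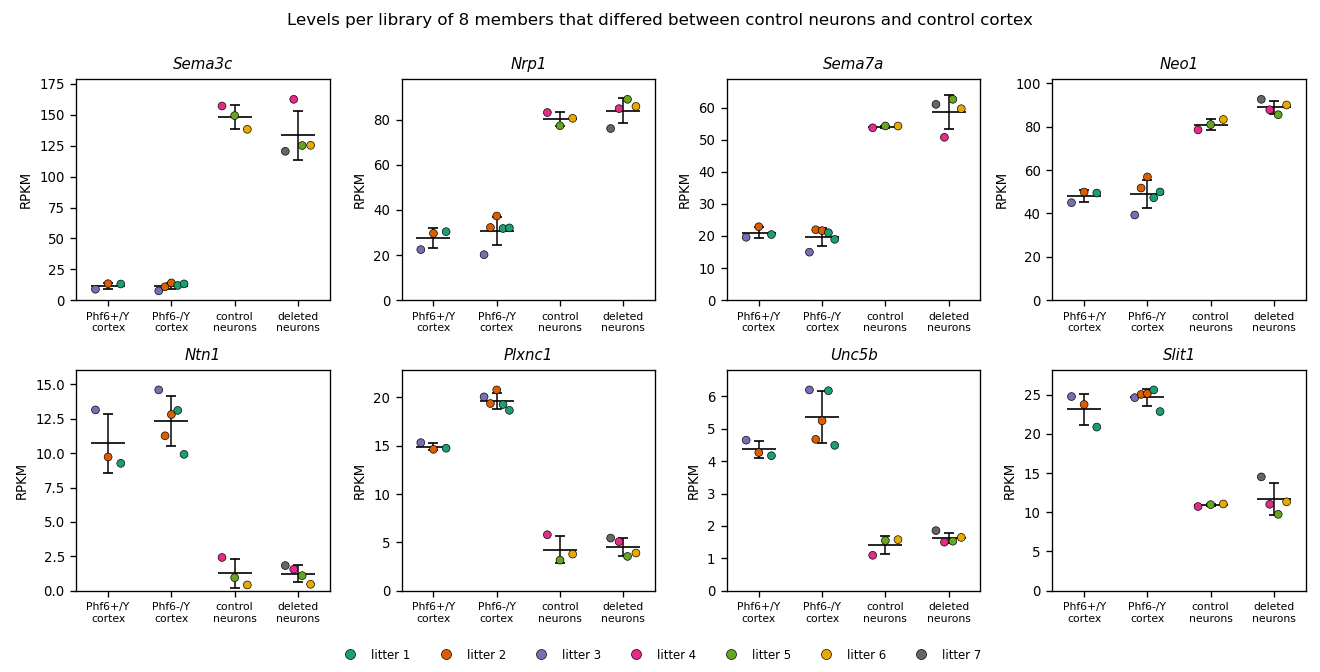
Levels in RPKM per library (y axis, from 0) of *Sema3c*, *Nrp1*, *Sema7a*, *Neo1*, *Ntn1*, *Plxnc1*, *Unc5b* and *Slit1* in *Phf6*+/Y cortex, *Phf6*-/Y cortex, control neurons and deleted neurons (x axis). Points are libraries coloured by litter, and bars are the mean ± SD. The first 4 genes are higher and the last 4 lower in every neuron library than in any cortex, with *Sema3c* between 120.5 and 163 RPKM in neurons.

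In the netrin system both secreted netrins fell and most receptors that passed the test rose. *Ntn1* went from 13.1, 9.72 and 9.26 RPKM in *Phf6*+/Y cortices to 2.42, 0.949 and 0.420 RPKM in control neurons, 8.35-fold lower with a log2 fold change of -3.06 (SE 0.66, FDR = 0.0186), with the control cultures spread widely but all below the cortices. *Ntn4*, another secreted netrin, fell with a log2 fold change of -0.97 (SE 0.17, FDR = 3.51e-04), while *Ntng2* rose from 36.5, 33.9 and 31.9 RPKM to 49.1, 59.4 and 49.0 RPKM with a log2 fold change of 0.62 (SE 0.10, FDR = 2.05e-04). Of the 7 receptors, 4 were higher and 1 lower. *Neo1* rose from 44.9, 49.9 and 49.4 RPKM to 78.5, 80.9 and 83.3 RPKM, with a log2 fold change of 0.75 (SE 0.08, FDR = 4.39e-06), and *Dscam*, *Unc5c* and *Unc5d* were also higher. *Dcc*, the attractive netrin receptor, was at 21.4 to 24.8 RPKM and 21.2 to 35.5 RPKM, with FDR = 0.240. *Unc5b* was the receptor that fell, from 4.65, 4.27 and 4.17 RPKM to 1.09, 1.55 and 1.58 RPKM. Its log2 fold change was -1.64 (SE 0.16, FDR = 3.34e-06). *Ntn1* lost its call without *Phf6*+/Y cortex replicate 1 (FDR = 0.0560) or without control culture 2 (FDR = 0.0759), and kept it in the other 4 fits that left out 1 library. Its log2 fold change over these 6 fits ran from -3.97 without control culture 1 to -2.64 without control culture 3.

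In the slit system 2 of 3 ligands were lower, and 1 receptor was higher and 1 lower. *Slit1* fell from 24.7, 23.7 and 20.9 RPKM to 10.7, 11.0 and 11.1 RPKM, with a log2 fold change of -1.09 (SE 0.09, FDR = 8.66e-07), and *Slit2* with a log2 fold change of -0.42. *Robo1* rose from 33.5, 37.4 and 38.2 RPKM to 62.2, 48.1 and 57.3 RPKM, with a log2 fold change of 0.62 (SE 0.10, FDR = 1.63e-04). *Robo3* fell from 2.40, 1.55 and 0.930 RPKM to 0.186, 0.391 and 0.306 RPKM, with a log2 fold change of -2.48 (SE 0.38, FDR = 1.80e-04). Among the ephrins, 2 were higher and 4 lower. *Efna3*, a GPI-anchored ligand, rose from 16.0, 13.5 and 18.3 RPKM to 26.2, 27.0 and 32.7 RPKM with a log2 fold change of 0.84 (SE 0.14, FDR = 2.13e-04), and *Efnb2* rose from 75.4, 80.4 and 84.5 RPKM to 113, 115 and 105 RPKM with a log2 fold change of 0.47 (SE 0.08, FDR = 2.35e-04). *Efna1* fell from 2.57, 2.61 and 3.80 RPKM to 0.804, 0.618 and 0.534 RPKM. Its log2 fold change was -2.19 (SE 0.32, FDR = 8.95e-05). *Efna5*, *Efnb1* and *Efnb3* were the other ephrins that fell, with log2 fold changes of -0.42, -0.80 and -0.28. Of these, *Efna5* and *Efnb3* each passed the FDR in only 2 of the 6 fits that left out 1 library.

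Summed per system, the level in control neurons was 267 ± 6.77 RPKM for the ephrins against 261 ± 18.7 RPKM in control cortex (SD, n = 3 each). The slit system was at 108 ± 13.1 RPKM against 97.4 ± 3.16 RPKM, so that neither sum moved by more than its spread. The netrin system was at 219 ± 2.79 RPKM against 167 ± 2.90 RPKM and the semaphorin system at 874 ± 22.5 RPKM against 648 ± 30.8 RPKM, both without overlap between libraries. Class 3 semaphorins were at 165 to 180.3 RPKM in control neurons and 29.5 to 35.5 RPKM in control cortex, and *Sema3c* alone was at 138 to 157 RPKM in control neurons. C and D plexins were at 11.6 to 12.5 RPKM and 34.2 to 37.3 RPKM, and the 2 secreted netrins at 4.13 to 7.27 RPKM and 16.9 to 21.7 RPKM.

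**Figure D5:**
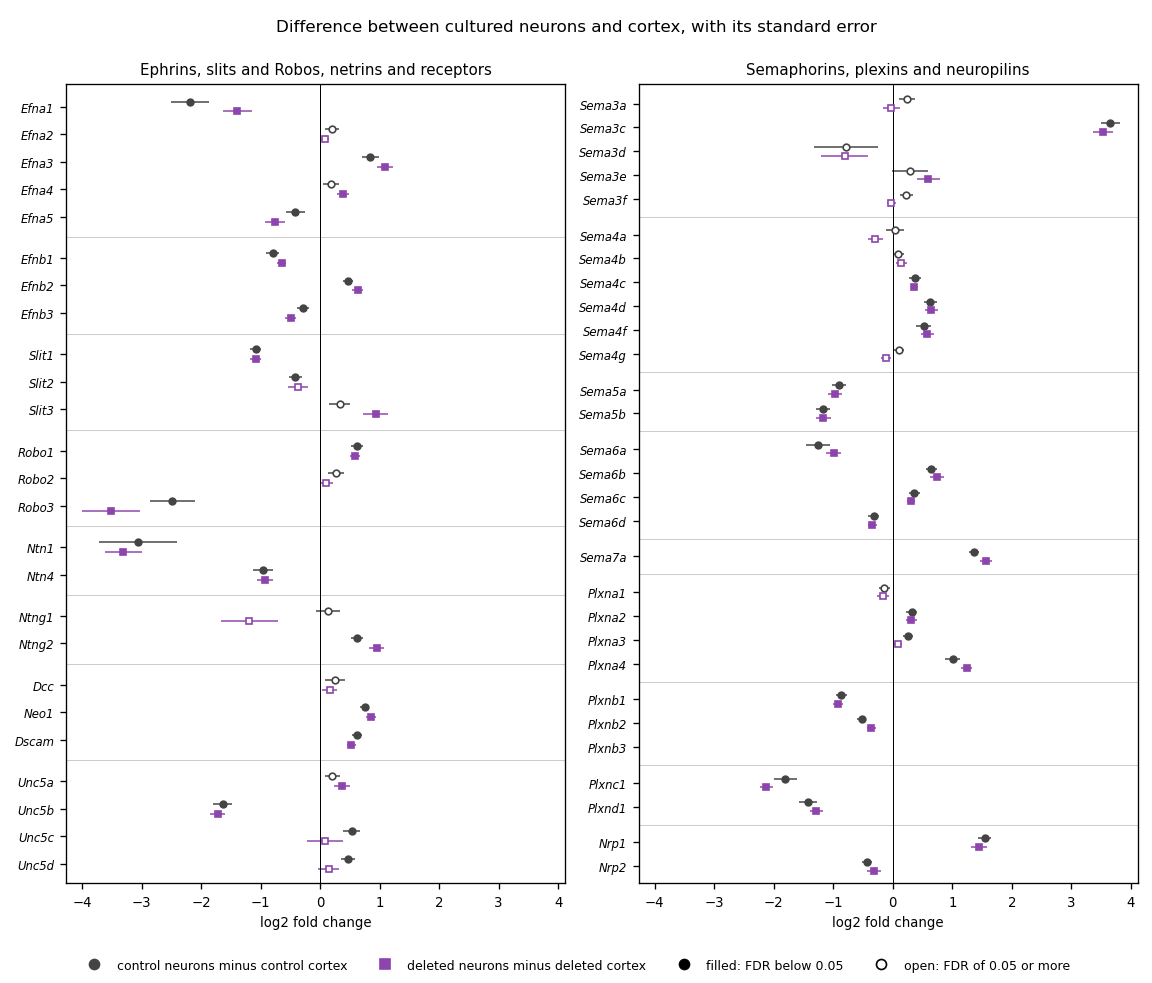
Log2 fold change between cultured neurons and cortex (x axis) of each member (y axis), for control neurons minus control cortex (circles) and deleted neurons minus deleted cortex (squares), grouped by family. Bars are standard errors, and filled symbols have FDR below 0.05. *Sema3c* stands far to the right at 3.66 and 3.54, and *Ntn1* and *Robo3* far to the left.

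The same comparison was made in the deleted libraries, which share no library with the controls but came from the same litters 1 to 3 in the cortex and, for 3 of the 4 cultures, litters 4 to 6, and share the stage and the culture. Here 38 of 53 members passed the FDR, 20 higher and 18 lower in neurons, against 59.2% of 14412 genes. Scaling by library totals gave 16 higher and 24 lower among the members, with a median log2 fold change over all genes of -0.19 in place of -0.031 and 2640 higher and 5986 lower genes in place of 4039 and 4486. *Sema3c* was at 7.52, 10.8, 14.0, 11.9 and 13.2 RPKM in *Phf6*-/Y cortices and at 120.5, 163, 125 and 125 RPKM in deleted neurons, with a log2 fold change of 3.54 (SE 0.17, FDR = 7.93e-08). *Nrp1* had a log2 fold change of 1.45, *Sema7a* of 1.56, *Neo1* of 0.86, *Ntn1* of -3.31 and *Slit1* of -1.08, all past the threshold. In all, 34 members passed in both comparisons with the same direction, 16 higher and 18 lower, which is 64.2% of the 53 tested. Of all 14164 genes tested in both, 45.4% passed in both, and the direction was the same for each of these genes too. *Slit2*, *Unc5c*, *Unc5d* and *Plxna3* passed in the controls only, and *Efna4*, *Slit3*, *Unc5a* and *Sema3e* in the deleted libraries only, where the interaction above called no difference for any of them.

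Of the genes around these systems, lists of receptors, transducers and co-receptors were counted. None of 14 Eph receptors, 46 signal transducers and 15 other guidance ligands and receptors tested passed the FDR in the cortex, nor did any of 9 adhesion co-receptors, where 0.387% of all genes passed. In the neurons, where 0.273% of all genes passed and 12 of the other guidance ligands and receptors were tested, the same lists gave 1 call: *Met*, the hepatocyte growth factor receptor that associates with B plexins, was higher among the adhesion co-receptors with a log2 fold change of 0.50 (SE 0.08, FDR = 0.0148). *Met* was at 5.61 to 8.80 RPKM in control and 6.35 to 11.2 RPKM in deleted neurons, which overlapped. The call was lost without control replicate 2 (FDR = 0.112) or deleted replicate 3 (FDR = 0.0779), both of litter 5, and *Met* had FDR = 0.826 without the litter term. Between control neurons and control cortex, where 51.1% of all genes passed, 6 Eph receptors were higher and 4 lower, 21 signal transducers were higher and 11 lower, 4 adhesion co-receptors were higher and 2 lower, and 5 of the other ligands and receptors were higher and 3 lower. *Epha4*, the highest of the Eph receptors, rose from 52.1 to 54.6 RPKM in *Phf6*+/Y cortices to 65.5 to 79.0 RPKM in control neurons, and *Crmp1*, the collapsin response mediator that relays semaphorin signals, was the highest transducer at 428 to 443 RPKM and 551 to 607 RPKM. *Cntn2* led the adhesion co-receptors and *Lrrc4b* the other ligands and receptors, with log2 fold changes between control neurons and control cortex of 0.57 (FDR = 1.47e-04) and -0.05 (FDR = 0.662).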

How the data were processed

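The authors sequenced stranded paired-end libraries of 8 cortices and 7 neuron cultures, aligned the reads to mm10 with Rsubread and deposited featureCounts read counts per Entrez gene with gene lengths. The strand setting of the counting is not given in the sources used here, so overlapping antisense genes cannot be told apart. Identifiers were named from RefSeq tables of GRCm38.p6; 1029 rows without an identifier, 875 identifiers without a match, pseudogenes, rRNAs and predicted genes were left out, as the study's methods do, which left 23128 genes.

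Each comparison was fitted to the deposited counts with edgeR 4.0.16 (default filterByExpr, TMM, robust quasi-likelihood test) and Benjamini-Hochberg FDR. The genotype fits had litter as a term: the labels give the litter, so libraries of a litter are paired through it, whereas the replicate numbers do not match litters. RPKM was computed from the counts with TMM factors over all 15 libraries. Alternatives were DESeq2 1.42.0, limma-trend 3.58.1, other scalings and filters (a minimum count of 50 in place of 10), no litter term, a fit over all libraries, TPM and leaving out each library. The fits were also run on simulated counts with the same dispersion for every gene, which cannot show how they behave on these libraries.

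The members, the other gene lists and the rule for named genes were chosen with earlier results of these data known. Named were members with FDR below 0.05 in a genotype or interaction fit, the 8 with the smallest p in each genotype fit, the highest of each of 17 families, and the largest rise and fall per system and role between control neurons and control cortex. Further members were named after their values were seen. R 4.3.3, Python 3.11.15, pandas 2.3.3 and matplotlib 3.10.9 were used.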

Additional observations from a re-analysis of the deposited data

Results flagged for a closer look

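Of 106 sets of values tested, each the levels of 1 member in 1 group of 4 or 5 libraries, 15 had 1 library far from the rest by Dixon's criterion, where chance gives about 1 in 20 for independent values. The *Phf6*-/Y cortices share litters and the members of a library are not independent, so that rate is only a guide. Among the *Phf6*-/Y cortices, 8 of the 9 such values belonged to replicate 1, the library with the summed thalamus marker level of 92.5 RPKM. It is also the only *Phf6*-/Y cortex of litter 3. In this library *Ntng1* was high at 6.02 RPKM, *Robo3* at 7.45 RPKM, *Slit2* at 9.47 RPKM and *Unc5c* at 4.42 RPKM. The same library was low for *Efnb2* at 52.8 RPKM, *Robo2* at 23.8 RPKM, *Sema3a* at 4.35 RPKM and *Unc5d* at 5.59 RPKM. *Plxnd1* was high in replicate 4 at 23.5 RPKM, against 16.6 to 18.4 RPKM in the others, and that library also had the highest meningeal marker sum of the cortices (112 RPKM) and the highest endothelial and mural marker sum (125 RPKM). The part of these markers in the members' levels was not tested.

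Among the deleted neurons, replicate 1, the culture of litter 7, was high for *Efna4* at 14.8 RPKM and for *Plxnb2* at 56.4 RPKM. Replicate 2 was high for *Sema3a* at 7.56 RPKM and for *Sema3c* at 162.6 RPKM, where the other deleted cultures had 120.5 to 125 RPKM of *Sema3c*. Replicate 3 was high for *Sema4b* at 11.2 RPKM and for *Sema4c* at 44.4 RPKM.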

How the results depend on the processing

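The calls in the genotype comparisons moved with the processing more than the fold changes did. In the cortex, the 2 members past the FDR became 5 with DESeq2, 4 with no low-count filter and 0 with no litter term, and the 57 genes in all became 199, 114 and 1. In the neurons, 0 members became 1 with DESeq2 or library totals and 4 with no filter (*Unc5d*, *Sema5a*, *Nrp2* and *Sema6a*), and 38 genes became 62, 73 and 297, and 1 with no litter term. In the interaction, 2 genes became 12 with DESeq2, 5 with no filter and 0 with no litter term. With TPM in place of RPKM, the ratio of the sums in control neurons and control cortex was 1.212 for the netrin system, against 1.31, and 1.25 for the semaphorin system, against 1.35. It was 0.949 for the ephrins, against 1.02, and 1.03 for the slit system, against 1.11. The causes of these shifts were not tested.

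Litter pairs the libraries in the genotype fits, and the fit without this block had a larger biological coefficient of variation (0.165 against 0.131 in the cortex, 0.127 against 0.0824 in the neurons). Its effect on *Plxnc1* and *Efna5* is given with their values. Without the block, small log2 fold changes changed sign for *Plxnc1* (0.081), *Robo3* (-0.017) and *Sema4a* (-0.0087) in the neurons, *Unc5d* (0.013) in the cortex and *Sema5b* (0.014) in the interaction. In the neurons, *Plxnc1* (-0.0047) was at 0.0011 with DESeq2 and 0.0054 with limma-trend, and *Robo3* (0.0030) at -0.0035 with limma-trend and -0.011 with library totals. *Efna2* in deleted neurons against deleted cortex was at -0.070 with library totals.

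Leaving out 1 library at a time gave 0 to 3 members and 7 to 81 genes in the cortex, with 0 members in 4 of 8 fits. It gave 0 to 2 members and 16 to 523 genes in the neurons, the highest without control replicate 3 and the lowest without control replicate 2, and 0 members and 0 to 4 genes in the interaction. In the genotype fits, leaving out the only control or only deleted library of a litter takes that litter out of the effect. Either culture of litters 4 to 6, and either cortex of litter 3, thus give the same loss, and these fits are not separate checks. Between neurons and cortex it gave 34 to 38 members and 6310 to 7123 genes in the controls, and 36 to 40 members and 7709 to 8290 genes in the deleted libraries. In these fits 18 of 53 members took both signs in the cortex, 16 in the neurons and 18 in the interaction. These included *Plxnc1* (-0.084 to 0.10), *Robo3* (-0.22 to 0.25), *Sema4a* (-0.11 to 0.11) and *Plxna1* (-0.0020 to 0.095) in the neurons, *Unc5d* (-0.21 to 0.043), *Sema4g* (-0.063 to 0.11) and *Sema5b* (-0.12 to 0.025) in the cortex, and *Efna4* (-0.015 to 0.21), *Nrp2* (-0.0039 to 0.18) and *Sema6a* (-0.12 to 0.35) in the interaction.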
